A study of Mus musculus with 20 samples.

Results

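The earliest age of this time course compared cones that had lost Dgcr8 with control cones 30 days after birth. Dgcr8 is the RNA-binding partner of the nuclease Drosha, and the comparison asks how the cone transcriptome stands at the first age sampled after its deletion. The 4 libraries, 2 per genotype, belong to a series of 20 libraries at P30, P40, P50, P60 and P90 (age in days after birth). All animals were C57BL/6 mice. The wild-type group (WT) carried the cone-specific Cre driver D4-cre and the Cre-dependent red reporter Ai9 tdTomato. The knockout group (KO) carried D4-cre, a conditional DGCR8 KO allele and Ai9 tdTomato, so both genotypes expressed the recombinase and, on recombination, the reporter. The labels' protocols also allow D4-cre without the reporter as control. Cones were collected from retina by fluorescence-activated cell sorting, and 150 ng of total RNA per library was sequenced. The loss is thus limited to cells in which D4-cre was active, and no label ties the 2 libraries of a group to different animals. The p-values therefore measure library-to-library spread only, and that spread may be technical. Of 23077 named gene symbols, 11456 had a mean of at least 5 CPM (counts scaled to library size, as in edgeR) in the 4 P30 libraries and form the set described here. They held 98.92% of the P30 counts. There were 348 genes between 4.5 and 5 CPM, just outside the set, and 296 between 5 and 5.5 CPM, just inside it.

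Cones are the photoreceptors of daylight and colour vision. They hold their opsins and signalling proteins in an outer segment built on a modified cilium, and they release glutamate from ribbon synapses. MicroRNAs are cut from hairpins in primary transcripts by the Microprocessor, a complex of Drosha and Dgcr8, then trimmed by Dicer and loaded onto Argonaute proteins. An Argonaute protein with its microRNA lowers the stability and translation of messages that pair with the microRNA seed, bases 2 to 8 from its 5′ end. Loss of Dgcr8 blocks the Microprocessor step, which leaves hairpins uncut. The adult retina is rich in miR-124, miR-204, miR-9, the let-7 family and the photoreceptor cluster miR-183, miR-96 and miR-182.

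The mature sequences of the microRNAs that the results below turn on are shown from the RefSeq microRNA table, with the seed in capitals. miR-29b and miR-29c come from hairpins in the transcript with the smallest adjusted p of the microRNA hosts at P30, and share 1 seed. The others are the seeds used in the search of untranslated regions.
mmu-miR-29b-3p: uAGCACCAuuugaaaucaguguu
mmu-miR-29c-3p: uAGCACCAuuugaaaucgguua
mmu-let-7a-5p: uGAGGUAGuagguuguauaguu
mmu-miR-183-5p: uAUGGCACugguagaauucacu
mmu-miR-96-5p: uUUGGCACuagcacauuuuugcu
mmu-miR-182-5p: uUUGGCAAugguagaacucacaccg
mmu-miR-9-5p: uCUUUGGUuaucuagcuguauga
mmu-miR-204-5p: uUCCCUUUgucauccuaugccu
mmu-miR-181a-5p: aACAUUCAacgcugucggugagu
The following 30-base windows hold an 8-base miR-29 site, TGGTGCTA in capitals, in the 3′ untranslated regions of genes whose messages rose in KO. The site is also in listed genes that were lower, namely Col3a1 (-1.98), Lamc1 (-0.71) and Lin28b (-3.17), and in others that were not called, such as Col4a1 (-0.33). The windows are shown because Dnmt3a, Tet3, Tet2 and Dicer1 are described below. Transcripts are those of GENCODE M21, and coordinates are on GRCm38.
Dnmt3a first site, chr12:3911394-3911423, plus strand: ggggaggtagcTGGTGCTAgcaccagggtc
Dnmt3a second site, chr12:3911463-3911492, plus strand: gggtcccaagcTGGTGCTAattcctctcat
Tet3 first site, chr6:83364325-83364354, minus strand: agtctaataaaTGGTGCTAtggtgtttcaa
Tet3 second site, chr6:83363766-83363795, minus strand: ccgcttttagtTGGTGCTAaacttctccct
Tet2 first site, chr3:133466162-133466191, minus strand: ttaacattaaaTGGTGCTAcaaatggtgtt
Tet2 second site, chr3:133465105-133465134, minus strand: tcacatcacgaTGGTGCTAcccagattgct
Dicer1, chr12:104690380-104690409, minus strand: cattttcccgtTGGTGCTAcgtttatgtat

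The P30 libraries were unequal in depth, with 2323451 and 2237624 gene counts in WT and 9169235 and 8531727 in KO. They also differed in counts on 1469 chemosensory receptor genes (olfactory, vomeronasal, trace amine and taste receptors), a family known from the nose and tongue. These silent receptor genes took 0.169% and 0.161% of WT counts and 0.0170% and 0.0166% of KO counts. Low counts on genes of this kind formed a background that was about the same in the replicates of a genotype and higher in WT. At P60 the order was turned, with 0.00209% and 0.00238% in WT against 0.0220% and 0.0187% in KO. Low-level genes moved with this background at P30, and its part in their differences was not tested. Replicates differed by more than sampling noise at every age (variance over genes 2.26 to 8.44 times the sampling variance).

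**Figure D1:**
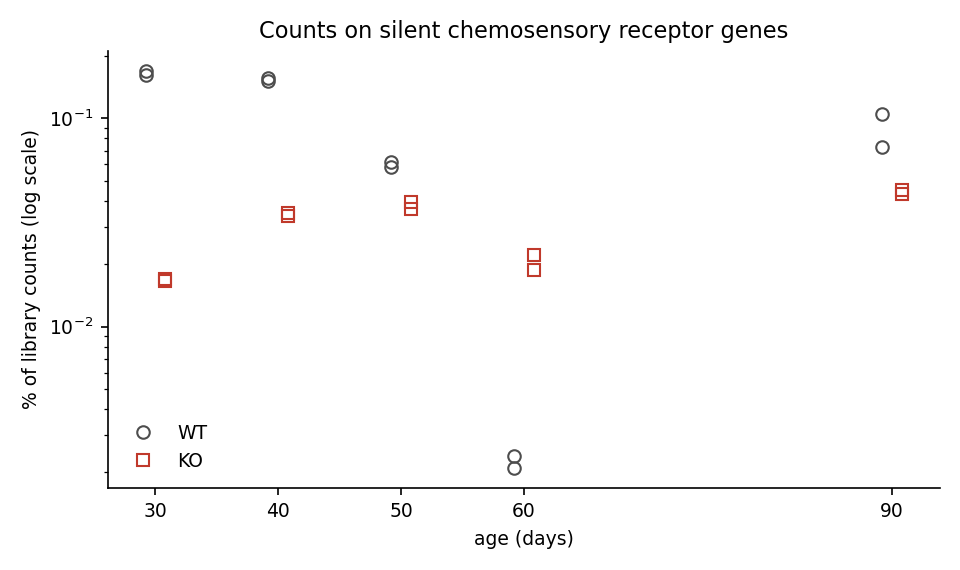
Percent of each library's counts that fell on 1469 silent chemosensory receptor genes (log scale), against age in days, with 1 point per library (circles WT, squares KO). At P30 the WT libraries were at 0.169% and 0.161% and the KO libraries at 0.0170% and 0.0166%, while at P60 the order was turned.

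A gene was called changed at an adjusted p below 0.05 (edgeR quasi-likelihood test with Benjamini-Hochberg adjustment over the 11456 genes). At P30, 3688 genes (32.2%) were called: 1979 (17.3%) were higher in KO and 1709 (14.9%) were lower. The median log2 fold change over all genes tested was 0.02. Most differences were small, and a test against a 2-fold difference called 34 genes higher (0.297%) and 427 lower (3.73%). The direction differed between bands of level. The filter and the bands use the mean CPM of the same 4 libraries, so a gene near silent in KO enters only through its WT level, and the reverse. Of 5623 genes with a mean of at least 32 CPM, 1738 rose (30.9%) and 332 fell (5.90%). Of 5833 genes between 5 and 32 CPM, 241 rose (4.13%) and 1377 fell (23.6%). The gene lists below were not matched for level, so their shares are to be read beside both bands as well as all genes tested. The libraries of the 2 genotypes did not overlap for 7054 genes (61.6%).

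The split also moved with the scaling. With factors from genes of at least 32 CPM (the abundant-gene scaling), which lowers every P30 log2 difference by 0.191, 962 genes were higher and 2523 lower. With factors from all genes that pass edgeR's default filter (the all-gene scaling), which raises every difference by 0.229, 3735 were higher and 1232 lower. Across these, the main scaling and size factors of the DESeq2 kind, 962 genes were higher and 1232 lower in every one. After an estimated background was subtracted at the silent receptors' rate per kb of coding sequence (an alternative chosen after seeing the data, and called the background subtraction below), 966 of the 1979 higher and 615 of the 1709 lower genes were still called. Without KO replicate 2, 1137 genes were lower in place of 1709.

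**Figure D2:**
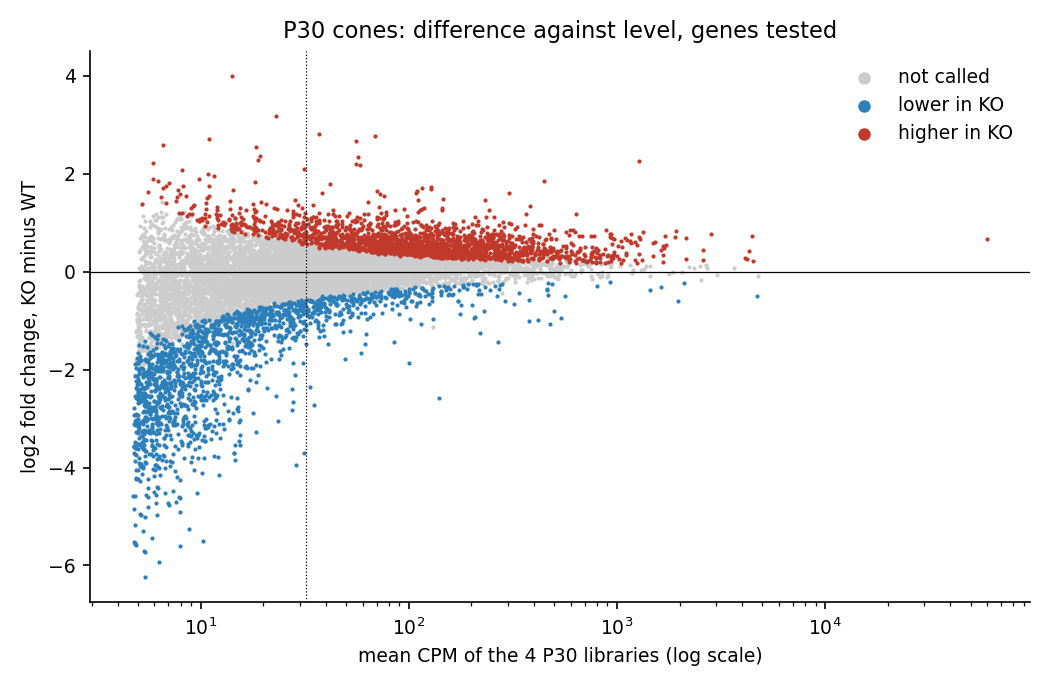
Log2 fold change (KO minus WT) of each of the 11456 genes tested at P30 against its mean CPM over the 4 libraries (log scale), with called genes in colour and a dotted line at 32 CPM. Of the genes left of the line 23.6% were lower in KO and 4.13% higher, and of those right of it 5.90% were lower and 30.9% higher.

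Dgcr8 itself (chr16:18253948-18289246, minus strand) was at 102 and 89.0 CPM in WT and 52.1 and 54.8 CPM in KO. Its message was lower in both KO libraries than in both WT libraries (log2 fold change -0.83, SE 0.15, adjusted p = 2.05e-05). Over P40, P50, P60 and P90 the log2 differences were -0.72, -0.66, -0.38 and -0.13. No label names the exons removed, so counts over the whole gene check the genotype only in part. Drosha, the nuclease of the complex, was at 98.4 and 76.9 CPM in WT and 85.9 and 83.8 CPM in KO, and its groups overlapped (log2 fold change -0.05, SE 0.14, adjusted p = 0.831). The sign of that difference turned under the all-gene scaling (0.18). Dicer1, which makes the second cut, was at 171 and 187 CPM in WT and 274 and 260.2 CPM in KO, and it rose without overlap (log2 fold change 0.57, SE 0.10, adjusted p = 9.51e-06).

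Beyond these 3 genes the microRNA pathway moved in both directions. Of 27 tested members, 8 were higher (29.6%) and 4 lower (14.8%), with a median log2 fold change of 0.16. Without WT replicate 2, 4 were higher. The abundant-gene scaling gave 3 higher and 5 lower, and the all-gene scaling 17 and 3. The Argonaute genes did not move as one. Eif2c2 (Argonaute 2, the slicing member of the family) was at 35.8 and 60.1 CPM in WT and 110.0 and 104 CPM in KO, without overlap between the groups (log2 fold change 1.16, SE 0.18, adjusted p = 3.81e-06). Eif2c1 (Argonaute 1) was at 21.5 and 54.2 CPM in WT and 67.2 and 68.5 CPM in KO, with 1 WT library far below the other (log2 fold change 0.85, SE 0.21, adjusted p = 0.00191). Eif2c4 (Argonaute 4) fell, from 63.8 and 41.2 CPM to 29.4 and 30.7 CPM (log2 fold change -0.81, SE 0.21, adjusted p = 0.00306), and Eif2c3 (Argonaute 3) overlapped between the groups (-0.06, adjusted p = 0.822). Of the 8 tested genes of the silencing step, 4 were higher: Tnrc6b (0.33) and Tnrc6c (0.33), which bridge Argonaute to deadenylases, the deadenylase Cnot7 (0.32) and the decapping enzyme Dcp2 (0.37). Of these 8, 1 was higher without WT replicate 2, 2 without KO replicate 1, and 0 under the abundant-gene scaling or after background subtraction. The poly(A) nuclease subunit Pan3 was lower (-0.41). Lin28b, which blocks let-7 maturation and is itself a let-7 target, was at 18.3 and 21.0 CPM in WT and 2.92 and 1.38 CPM in KO and fell (log2 fold change -3.17, SE 0.51, adjusted p = 5.00e-06). Its WT level stood beside an estimated background of 9.42 CPM.

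The host transcripts of microRNAs hold the uncut hairpins. A330023F24Rik (chr1:194976375-195037904, plus strand), which contains the hairpins Mir29b-2 and Mir29c, was at 481 and 398 CPM in WT and 2146 and 2090.5 CPM in KO. Both KO libraries were far above both WT libraries (log2 fold change 2.27, SE 0.072, adjusted p = 8.37e-29). The log2 differences at the later ages were 2.87, 2.46, 2.54 and 2.44. The hairpins rose with it. Mir29b-2 (chr1:195037040-195037120) went from 2.03 and 1.26 CPM to 26.1 and 27.4 CPM (log2 fold change 4.00, SE 0.46, adjusted p = 2.57e-09), and Mir29c (chr1:195037547-195037634) from 4.88 and 4.20 CPM to 46.1 and 36.8 CPM (log2 fold change 3.18, SE 0.34, adjusted p = 4.28e-10). Mir29b-2 had the largest rise among the genes named by rule. These are reads of RNA that covers the hairpin's position and not of the mature microRNA. Both hairpins lie within the host's span on the same strand, so reads of a hairpin and of its host cannot be told apart.

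Other hosts did not share 1 direction. Of 8 tested hosts, 3 were higher and 3 lower. Mir17hg, host of the miR-17 to miR-92a cluster, was at 19.5 and 10.5 CPM in WT and 39.0 and 44.6 CPM in KO (log2 fold change 1.47, SE 0.25, adjusted p = 1.10e-05). C130071C03Rik, host of miR-9-2, rose from 1.63 and 4.62 CPM to 11.8 and 10 CPM (1.81, adjusted p = 0.0051). The imprinted noncoding RNA Meg3 fell from 261 and 285 CPM to 132 and 156 CPM (log2 fold change -0.93, SE 0.10, adjusted p = 1.26e-09). Its neighbour Rian fell by less, from 60.2 and 40.7 CPM to 31.6 and 25.6 CPM (log2 fold change -0.82, SE 0.22, adjusted p = 0.00391), and was not called after background subtraction. The channel gene Trpm1, host of miR-211 and a marker of ON bipolar cells, was at 131 and 148 CPM in WT and 92.9 and 104 CPM in KO (log2 fold change -0.50, SE 0.13, adjusted p = 0.00261), and it was not called under the all-gene scaling (adjusted p = 0.085). Only 8 of 578 listed microRNA genes reached 5 CPM: 4 were higher and 1 lower. Mir124a-2 was among the higher ones, at 14.6 and 5.88 CPM in WT and 17.6 and 25.6 CPM in KO (log2 fold change 1.07, SE 0.36, adjusted p = 0.0179). Below the filter, raw counts on Mir101a were 1 and 5 in WT and 68 and 76 in KO, and on Mir425 they were 1 and 7 in WT and 49 and 39 in KO. The KO libraries were deeper, as given above, and these genes were not tested. They fall outside the naming rule, and the other microRNA genes below the filter are not described. All 578 microRNA genes summed to 249 and 228 CPM in WT and 282 and 312 CPM in KO, without TMM factors.

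Reported targets of retinal microRNAs were counted beside the 32.2% of all tested genes called in either direction. Of 14 tested miR-124 targets, 0 were higher (also 0 at an unadjusted p below 0.05 and with DESeq2) and 2 were lower: Lamc1 (-0.71) and Iqgap1 (-0.57). Of 10 tested targets of miR-183, miR-96 and miR-182, 4 were higher and 0 lower by edgeR (2 at an unadjusted p below 0.05, and 1 with DESeq2), but leaving out any 1 of the 4 libraries brought this to 1 or 2. Rac1, a small GTPase of the actin cytoskeleton with an 8-base miR-182 site, was at 27.2 and 21.0 CPM in WT and 49.2 and 45.7 CPM in KO (log2 fold change 0.97, SE 0.21, adjusted p = 2.56e-04). Of 11 tested let-7 targets, 3 were higher and 1, Lin28b, lower, and without KO replicate 2 only 1 was higher. Dicer1 was 1 of the 3, with Arid3b (0.52), a DNA-binding protein, and the receptor Igf1r (0.36).

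Among 11 tested miR-29 targets, 3 were higher and 2 lower. The 3 act on DNA methylation. Dnmt3a, which sets methyl marks on unmethylated DNA, was at 264 and 227 CPM in WT and 470.3 and 477 CPM in KO (log2 fold change 0.95, SE 0.087, adjusted p = 6.50e-12). Tet3 and Tet2 oxidise methylcytosine. Tet3 was at 105 and 115 CPM in WT and 173 and 174 CPM in KO (log2 fold change 0.66, SE 0.11, adjusted p = 1.49e-05). Tet2 was at 306 and 292 CPM in WT and 414 and 410.1 CPM in KO (log2 fold change 0.46, SE 0.087, adjusted p = 5.14e-05). All 3 stayed called after background subtraction. The 2 lower members, Col1a2 (-2.27) and Col3a1 (-1.98, with an 8-base miR-29 site), are fibrillar collagens and were not called after it. Dnmt3a was higher at each later age too, with log2 differences of 1.11, 0.93, 1.01 and 1.20.

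Across the transcriptome, 10970 tested genes had an annotated 3′ untranslated region, and of these 17.6% were higher and 14.3% lower. Of the 432 genes with an 8-base miR-29c site, 22.7% were higher and 17.6% lower, with a median log2 fold change of -0.00, beside 17.3%, 14.2% and 0.03 in the 10538 genes without one. Genes with sites have longer untranslated regions (median 2982 bases against 1548). Among the 3658 genes with the longest regions, 24.7% of those with a miR-29c site were higher and 17.5% of those without. For miR-96 sites (GTGCCAAA), 14.4% were higher and 19.2% lower. For let-7a (CTACCTCA) the shares were 18.2% and 18%, for miR-182 (TTGCCAAA) 17.8% and 18.1%, and for miR-183 (GTGCCATA) 18.6% and 16.2%. For miR-181a (TGAATGTA) they were 20.9% and 16.6%, for miR-204 (AAAGGGAA) 18.8% and 19.0%, and for miR-9 (ACCAAAGA) 16.7% and 19.7%. These shares are descriptions, and those of the sites other than miR-29c are not split by length of the region. Of all 3658 genes with the longest regions 18.8% were lower, beside 9.77% of the 3655 with the shortest. With 7-base sites (TGGTGCT) in place of 8-base sites, 18.1% of 1999 genes with a miR-29c site were higher, beside 17.4% of those without. A match does not show pairing in cones.

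At P30 the 2 cone opsins moved in opposite directions. Opn1sw, the short-wavelength opsin (chr6:29376671-29388468, minus strand), was at 5596 and 5491 CPM in WT and 3975 and 3853 CPM in KO. It was lower in both KO libraries (log2 fold change -0.50, SE 0.053, adjusted p = 3.45e-10). Opn1mw, the medium-wavelength opsin (chrX:74127464-74150760, plus strand), was at 1291 and 1535 CPM in WT and 1873 and 2066 CPM in KO. It was higher in both (log2 fold change 0.48, SE 0.081, adjusted p = 1.94e-05). Arr3, the cone arrestin that ends opsin signalling, was at 2430.1 and 2286 CPM in WT and 1589 and 1514 CPM in KO and fell (log2 fold change -0.60, SE 0.064, adjusted p = 4.28e-10). Gnat2, the cone transducin alpha subunit, was at 2678 and 2459 CPM in WT and 2839.6 and 2795 CPM in KO. The Gnat2 groups did not overlap, but the difference did not pass the test (log2 fold change 0.13, SE 0.066, adjusted p = 0.121), and its sign turned under the abundant-gene scaling (-0.06) and after background subtraction (-0.12). In sorted bulk samples, fewer cones and less RNA per cone cannot be told apart.

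Of the 24 tested genes of cone phototransduction, 14 were higher (58.3%) and 3 lower (12.5%), with a median log2 fold change of 0.23. Under the abundant-gene scaling 7 were higher and 6 lower, under the all-gene scaling 19 and 2, and after background subtraction 7 and 8, so the direction of the smaller differences followed the scaling. Pdc, Pde6c, Pde6h, Gngt2, Guca1a and Kcnv2 were called higher under each of these. Pdc, phosducin, which binds transducin beta-gamma, was at 3279.8 and 3444 CPM in WT and 5523 and 5669 CPM in KO (log2 fold change 0.74, SE 0.10, adjusted p = 1.52e-05). Both subunits of the cone phosphodiesterase rose: Pde6c, the catalytic one, was at 3723 and 3671 CPM in WT and 5004 and 4894 CPM in KO (log2 fold change 0.42, SE 0.064, adjusted p = 1.96e-06), and Pde6h, the inhibitory one, was at 886 and 942 CPM in WT and 1447 and 1372 CPM in KO (log2 fold change 0.63, SE 0.083, adjusted p = 2.67e-07). Gngt2, the cone transducin gamma subunit, went from 828 and 1048 CPM to 1379 and 1444 CPM (0.59, adjusted p = 0.00104). Guca1a, the calcium sensor that activates guanylate cyclase, was at 1485 and 1322 CPM in WT and 2031 and 2051 CPM in KO (log2 fold change 0.54, SE 0.065, adjusted p = 8.57e-09). Its paralogue Guca1b was at 167 and 141 CPM in WT and 129 and 120.4 CPM in KO and fell (log2 fold change -0.30, SE 0.11, adjusted p = 0.0342), a call lost under the all-gene scaling. The potassium channel subunit Kcnv2 was at 508 and 493 CPM in WT and 705 and 758 CPM in KO (log2 fold change 0.55, SE 0.074, adjusted p = 1.35e-07). The cyclic nucleotide-gated channel subunit Cnga3 was at 511 and 444 CPM in WT and 595 and 552 CPM in KO (log2 fold change 0.26, SE 0.082, adjusted p = 0.0104), a call lost under the abundant-gene scaling, and its partner Cngb3 had a log2 fold change of 0.04 (adjusted p = 0.702).

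At P30 these genes were compared with the later ages. The P30 difference was compared with the mean difference at P40, P50, P60 and P90, which share no library with P30. Over all genes, 1253 (10.9%) were more positive at P30 and 1367 (11.9%) more negative. Of the 24 phototransduction genes, 19 were more positive and 0 more negative (also 0 at an unadjusted p below 0.05 and with DESeq2), and the list's median difference at the later ages was 0.10, -0.09, -0.56 and -0.54. For Opn1mw the contrast was 2.70 (SE 0.10, adjusted p = 1.23e-22). Its log2 differences at the later ages were 0.73, -0.02, -2.57 and -7.03, and without P90 in the mean the contrast was 1.10. For Gnat2 the contrast was 0.97 (SE 0.075, adjusted p = 5.28e-14), for Opn1sw 0.78 (SE 0.059, adjusted p = 2.83e-14) and for Arr3 0.43 (SE 0.072, adjusted p = 1.48e-05). Without P90 in the mean the Arr3 contrast was -0.00 (adjusted p = 0.977). Arr3 did not decline in order, since its difference at P40 was 0.11 after -0.60 at P30.

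**Figure D3:**
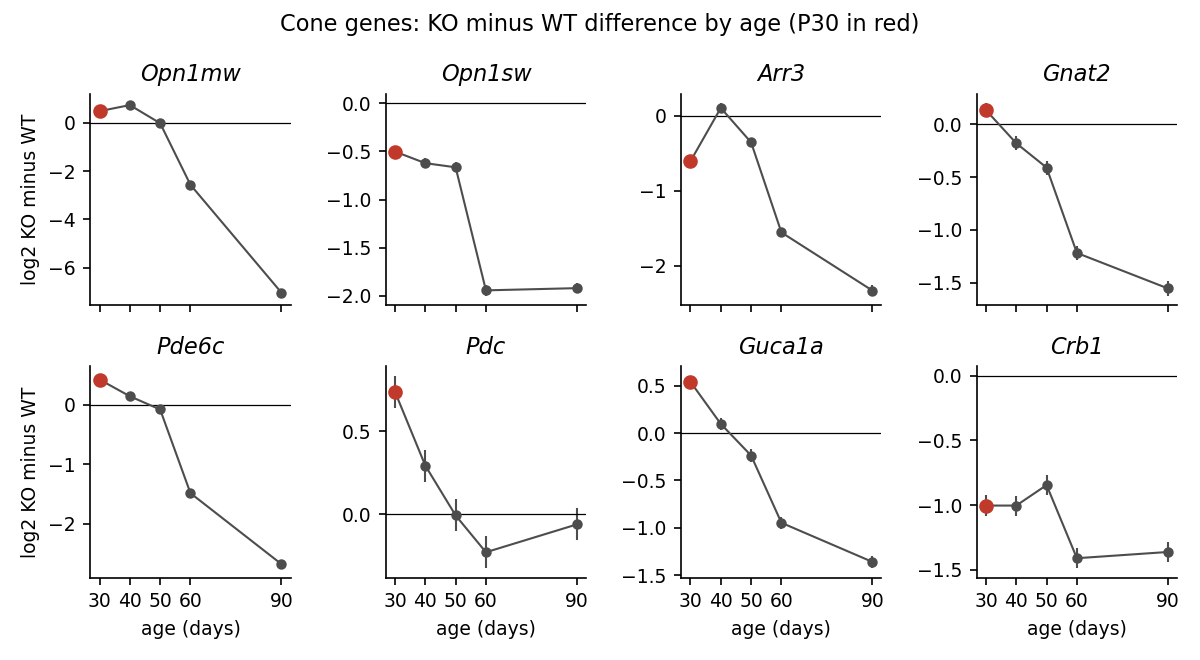
KO minus WT log2 fold change of 8 cone genes against age in days (points, with SE bars from the edgeR fit), with P30 in red. At P30 Opn1mw, Pde6c, Pdc and Guca1a lay above 0, Gnat2 near 0, and Opn1sw, Arr3 and Crb1 below it, while at P90 Opn1mw was at -7.03 and Pde6c at -2.68.

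The promoter of Guca1a is shown as a member that rose and holds a CRX element (TAATCC on either strand). CRX is a homeodomain factor of photoreceptor genes, and its part in any difference here was not tested. The window, 250 bases before to 50 after the start from RefSeq (GRCm38.p6, minus strand, written 5′ to 3′), has the element in capitals on the opposite strand at -57.
Guca1a promoter, chr17:47400557-47400856: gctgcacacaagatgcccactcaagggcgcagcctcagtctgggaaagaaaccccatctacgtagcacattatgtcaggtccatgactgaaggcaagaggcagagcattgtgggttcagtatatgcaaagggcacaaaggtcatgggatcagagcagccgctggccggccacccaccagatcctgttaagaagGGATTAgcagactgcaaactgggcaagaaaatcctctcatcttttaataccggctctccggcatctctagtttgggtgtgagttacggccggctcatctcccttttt
Of the 14 phototransduction genes with a promoter in the table, 5 (35.7%) held the element, beside 648 of 8946 (7.24%) of all tested genes with one. Of the 7 that were higher, 2 held it, Guca1a and Gucy2e. Gnat2, Gnb5 and Gucy2f also held it and were not called. A match is a description and not a site.

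Outer segment and apical genes moved in both directions. Of 22 tested, 9 were higher (40.9%) and 1 lower, with a median of 0.16. The abundant-gene scaling gave 4 and 4, and background subtraction 4 and 6. The lower gene was Crb1, which organises the adhesion belt between photoreceptors and Mueller glia. Crb1 was at 501 and 509.9 CPM in WT and 246 and 258 CPM in KO, below WT in both libraries by about the same ratio (log2 fold change -1.0, SE 0.078, adjusted p = 8.85e-14). Its differences at the later ages were -1.0, -0.85, -1.41 and -1.36. The 9 higher genes were 3 of 9 tested disc genes, 3 of 4 trafficking genes (Tulp1, Unc119 and Aipl1), 2 of 4 matrix genes and 1 of 5 polarity genes (Mpp4). The 3 trafficking calls were lost under the abundant-gene scaling and after background subtraction. Prom1, a disc-forming membrane protein, was at 676 and 767 CPM in WT and 1199 and 1137 CPM in KO (log2 fold change 0.69, SE 0.068, adjusted p = 4.27e-11). The interphotoreceptor matrix proteoglycans were both higher: Impg2 at 1179 and 1219.8 CPM in WT and 1838 and 1836 CPM in KO (log2 fold change 0.62, SE 0.061, adjusted p = 7.10e-11) and Impg1 at 237 and 337 CPM in WT and 567 and 538 CPM in KO (log2 fold change 0.94, SE 0.10, adjusted p = 1.25e-10). Prph2, the rim protein of discs, had a log2 fold change of 0.12 (adjusted p = 0.121).

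Genes of the cilium and of transport along it moved less. Of 46 tested, 11 were higher (23.9%) and 3 lower (6.52%), with a median of 0.15, and the abundant-gene scaling gave 6 and 7. Without WT replicate 2 or KO replicate 2 only 1 was lower. Bbs4, a subunit of the BBSome coat, was at 228 and 222 CPM in WT and 351 and 350.2 CPM in KO (log2 fold change 0.64, SE 0.085, adjusted p = 8.87e-08). Ahi1 of the transition zone (0.50), the small GTPase Arl6 (0.42) and the kinesin subunit Kif3b (0.54) were also higher. The lower genes were Dync2h1, the retrograde dynein motor, at 301 and 323 CPM in WT and 216 and 224 CPM in KO (log2 fold change -0.50, SE 0.091, adjusted p = 3.40e-05), Cep290 (-0.25) and Tmem67 (-0.54) of the transition zone.

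At the synapse 4 of 6 vesicle genes and 2 of 5 fusion genes were higher, or 1 and 1 under the abundant-gene scaling and 0 and 1 after background subtraction. Of 25 tested synapse genes, 8 were higher (32%) and 1 lower, with a median of 0.11. The abundant-gene scaling gave 3 and 7, and the all-gene scaling 17 and 0. Stx3, the fusion syntaxin of ribbon synapses, was at 943 and 991 CPM in WT and 1471 and 1479.7 CPM in KO (log2 fold change 0.61, SE 0.067, adjusted p = 1.11e-09). Syp, the vesicle protein synaptophysin, was at 2366 and 2029 CPM in WT and 2985 and 3028 CPM in KO (log2 fold change 0.45, SE 0.090, adjusted p = 4.80e-04), a call lost after background subtraction. Of 7 ribbon genes 0 were called in either direction by edgeR (also 0 at an unadjusted p below 0.05 and with DESeq2). Dmd, which anchors the cleft complex, was the lower gene (-0.23). Of 18 photoreceptor transcription factors, 7 were higher and 0 lower (also 0 at an unadjusted p below 0.05 and with DESeq2), but 2 without WT replicate 1, 3 without KO replicate 2 and 9 without WT replicate 2. Crx was at 916 and 1109.8 CPM in WT and 1447 and 1514 CPM in KO (log2 fold change 0.55, SE 0.071, adjusted p = 5.87e-08) and was called under every scaling. Esrrb, an orphan nuclear receptor, was at 70.7 and 74.8 CPM in WT and 101 and 122 CPM in KO (log2 fold change 0.62, SE 0.13, adjusted p = 2.98e-04). Thrb, the thyroid hormone receptor that sets the medium-wavelength opsin programme, was at 631 and 808 CPM in WT and 856 and 889 CPM in KO (log2 fold change 0.28, SE 0.077, adjusted p = 0.00437), and its call was lost under the abundant-gene scaling.

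Markers of cones and of other cells were measured beside these groups. Sums are of CPM without TMM factors, over all counted members of a list, tested or not. The 12 cone markers summed to 23301 and 23414 CPM in WT and 21599.8 and 21526 CPM in KO. By gene, 7 of the 12 were higher and 2 lower, with a median log2 fold change of 0.25, or 5 and 2 under the abundant-gene scaling. The 13 rod markers summed to 12368 and 12705 CPM in WT and 13536 and 14022 CPM in KO, so rod messages were in all 4 libraries. Of them 8 were higher and 0 lower (also 0 at an unadjusted p below 0.05 and with DESeq2), or 3 and 0 under the abundant-gene scaling. Sag, rod arrestin, was at 3634 and 3807 CPM in WT and 4425 and 4644 CPM in KO (log2 fold change 0.29, SE 0.058, adjusted p = 1.64e-04). Of 10 bipolar cell markers, 1 was higher, Cabp5 (0.41), and 1 lower, Trpm1 (-0.50). Of 10 tested Mueller glia markers 0 were called by edgeR or DESeq2, and 1 was higher and 2 lower at an unadjusted p below 0.05. All 11 markers summed to 759 and 763 CPM in WT and 677 and 674 CPM in KO. The 9 amacrine markers summed to 256 and 236 CPM in WT and 162 and 179.6 CPM in KO (2 of 8 tested were lower). The 8 ganglion cell markers summed to 196 and 227 CPM in WT and 144 and 151 CPM in KO (2 of 6 tested were lower). The 8 vessel markers summed to 92.1 and 92.1 CPM in WT and 53.7 and 47.2 CPM in KO (1 of 4 tested was lower). The 9 microglia markers summed to 42.6 and 25.5 CPM in WT and 7.20 and 4.92 CPM in KO, and the 1 tested was lower. No erythrocyte or lens marker reached 5 CPM. The part of these cells in any result here was not tested.

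Of enzymes that use ketone bodies 2 of 4 tested were higher in KO, of those for branched-chain amino acids 2 of 6 (median -0.01), and of those for fatty acids 6 of 11. Oxct1, which brings ketone bodies into the citrate cycle in mitochondria, was at 211 and 177 CPM in WT and 710.0 and 685 CPM in KO. Its KO libraries were far above both WT libraries (log2 fold change 1.85, SE 0.086, adjusted p = 7.85e-22), and the later differences were 1.93, 1.89, 1.60 and 1.84. Acsl1, which activates long-chain fatty acids, was at 148 and 154 CPM in WT and 457 and 459 CPM in KO (log2 fold change 1.60, SE 0.092, adjusted p = 2.93e-18). Bcat1, the cytosolic branched-chain aminotransferase, was at 395 and 385 CPM in WT and 912 and 856 CPM in KO (log2 fold change 1.18, SE 0.070, adjusted p = 8.64e-18). Dbt, a subunit of the branched-chain keto acid dehydrogenase, rose from 6.91 and 6.72 CPM to 22.5 and 20.8 CPM (log2 fold change 1.67, SE 0.35, adjusted p = 2.52e-04). Bdh1, the other ketone enzyme, was at 31.3 and 24.8 CPM in WT and 53.9 and 53.5 CPM in KO (log2 fold change 0.93, SE 0.23, adjusted p = 0.00181). Of the 21 tested genes of ketone, branched-chain and fatty acid use, 10 were higher (47.6%) and 1 lower, with a median of 0.36. The count was 9 under the abundant-gene scaling and 11 under the all-gene scaling. The fatty acid members Cpt1a (0.64), the gate to mitochondrial import, and Acadm (0.77), which takes the first oxidation step, were among them.

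**Figure D4:**
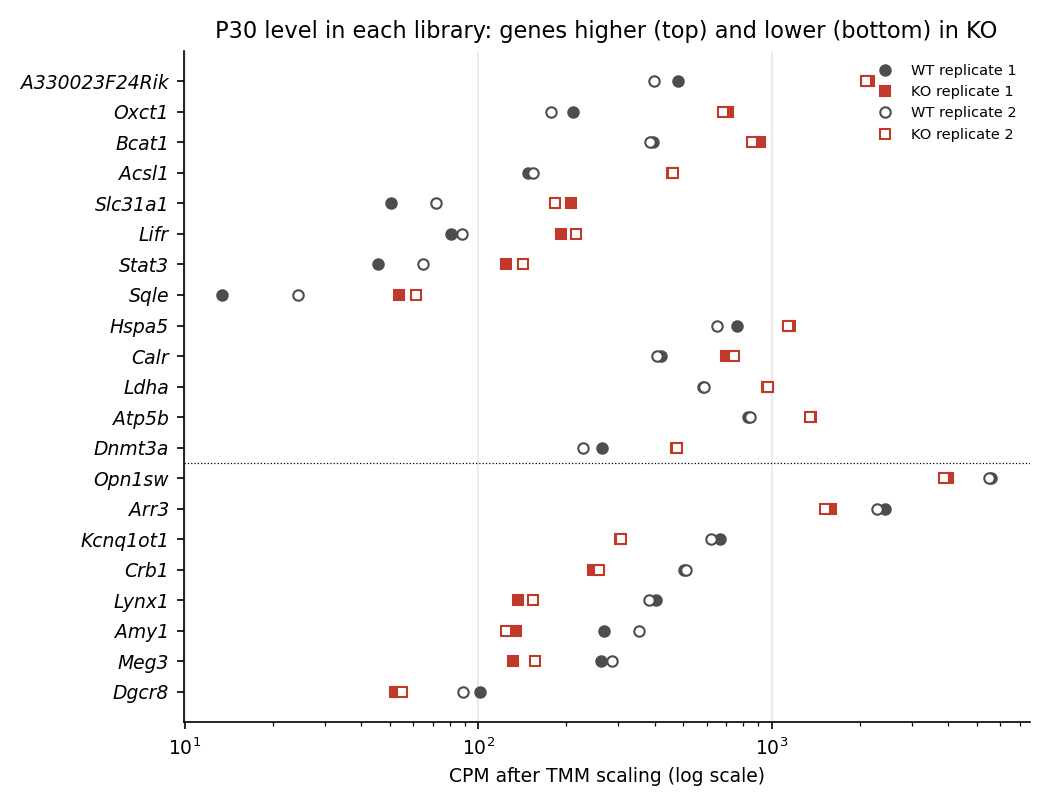
TMM-scaled CPM (log scale) of 21 genes in each P30 library, with circles for WT, squares for KO and open symbols for replicate 2. For genes above the dotted line both KO libraries lie above both WT libraries, and for genes below it both lie below.

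Of 77 tested nuclear genes of oxidative phosphorylation, 42 were higher (54.5%) and 0 lower (also 0 at an unadjusted p below 0.05 and with DESeq2), with a median log2 fold change of 0.51, and 35 were not called. The higher genes comprised 18 of 37 in complex I, 3 of 4 in complex II, 4 of 9 in complex III, 7 of 12 in complex IV and 10 of 15 in ATP synthase. The count was 25 under the abundant-gene scaling (with 1 lower), 65 under the all-gene scaling and 20 after background subtraction. Atp5b, the catalytic beta subunit of ATP synthase, was at 833 and 846 CPM in WT and 1357 and 1353 CPM in KO (log2 fold change 0.69, SE 0.072, adjusted p = 2.41e-10). Ndufa10 of complex I was at 102 and 108 CPM in WT and 184 and 206 CPM in KO (log2 fold change 0.90, SE 0.12, adjusted p = 1.68e-07). Ndufa4, listed here with complex I, was at 47.2 and 86.1 CPM in WT and 158 and 161 CPM in KO, with WT libraries apart from each other but below both KO libraries (log2 fold change 1.26, SE 0.16, adjusted p = 8.72e-08). Cycs, cytochrome c, was at 51.2 and 61.3 CPM in WT and 101 and 113 CPM in KO (log2 fold change 0.93, SE 0.16, adjusted p = 1.16e-05). Compared with the later ages 35 of the 77 genes were more positive at P30 and 0 more negative (also 0 at an unadjusted p below 0.05 and with DESeq2), and the list medians at P40, P50, P60 and P90 were 0.17, 0.07, -0.19 and -0.05.

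The citrate cycle and glycolysis were less uniform. Of 19 tested citrate cycle genes, 10 were higher and 1 lower, with a median of 0.35, and 6 were higher without WT replicate 2 or without KO replicate 1. The pyruvate dehydrogenase subunit Pdhb was higher (0.95). The GTP-forming succinate ligase subunit Suclg2 was at 13.8 and 13.0 CPM in WT and 1.28 and 0.502 CPM in KO (log2 fold change -3.87, SE 0.74, adjusted p = 7.51e-05), with an estimated background of 4.81 CPM in WT. Of 21 tested glycolysis genes, 9 were higher (42.9%) and 1 lower, with a median of 0.22. The abundant-gene scaling gave 4 and 4. Ldha, which makes lactate, was at 583 and 588 CPM in WT and 961 and 975 CPM in KO (log2 fold change 0.72, SE 0.075, adjusted p = 1.72e-10). Aldoc, an aldolase, was at 124 and 94.5 CPM in WT and 219.7 and 216 CPM in KO (log2 fold change 1.00, SE 0.11, adjusted p = 1.93e-09). Pfkm, a phosphofructokinase, fell from 95.5 and 121 CPM to 80.2 and 74.8 CPM (log2 fold change -0.48, SE 0.13, adjusted p = 0.00475), a call lost under the all-gene scaling. Of the 21, 15 were more positive at P30 than at the later ages and 0 more negative (also 0 at an unadjusted p below 0.05 and with DESeq2).

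Of 24 tested cholesterol synthesis genes, 10 were higher (41.7%) and 0 lower by edgeR (2 at an unadjusted p below 0.05, and 1 with DESeq2), with a median of 0.38. The count was 9 under the abundant-gene scaling (with 2 lower), 12 under the all-gene scaling and 10 after background subtraction (with 1 lower). By step, 5 of 10 early genes, 2 of 9 late genes and 3 of 5 regulators were higher, and the steps were not tested against each other. Sqle, the squalene epoxidase, was at 13.4 and 24.4 CPM in WT and 53.6 and 61.6 CPM in KO (log2 fold change 1.61, SE 0.22, adjusted p = 2.33e-07). Hmgcs1, the synthase of an early step, was at 140.3 and 141 CPM in WT and 227 and 233 CPM in KO (log2 fold change 0.71, SE 0.11, adjusted p = 1.24e-06). Of the regulators, the transcription factor Srebf2 was at 33.7 and 30.2 CPM in WT and 60.9 and 65.4 CPM in KO (log2 fold change 0.98, SE 0.17, adjusted p = 2.64e-05), its escort Scap had a log2 fold change of 0.70 (adjusted p = 5.54e-05), and the retention factor Insig1 was at 29.7 and 31.5 CPM in WT and 47.6 and 52.0 CPM in KO (log2 fold change 0.70, SE 0.20, adjusted p = 0.00462). The list stood further up later: 1 gene was more positive at P30 and 7 more negative, and the medians at the later ages were 0.37, 0.48, 0.84 and 1.14.

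The Hmgcs1 promoter is shown because it was the 1 of 18 cholesterol genes with a promoter in the table that held the sterol element TCACNCCAC, the binding sequence of SREBP factors, on either strand. The element is in capitals at -137 (RefSeq, GRCm38.p6, plus strand).
Hmgcs1 promoter, chr13:119690101-119690400: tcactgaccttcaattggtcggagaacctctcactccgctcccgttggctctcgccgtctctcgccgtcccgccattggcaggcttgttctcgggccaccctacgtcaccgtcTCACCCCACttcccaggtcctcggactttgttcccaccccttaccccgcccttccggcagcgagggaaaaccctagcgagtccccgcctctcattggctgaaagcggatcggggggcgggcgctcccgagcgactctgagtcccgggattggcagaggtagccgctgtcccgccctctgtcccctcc
Of all 8946 tested genes with a promoter, 131 (1.46%) held it.

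Chaperones of the endoplasmic reticulum rose together. Of 13 tested, 12 were higher and 0 lower (also 0 at an unadjusted p below 0.05 and with DESeq2), and 8 under the abundant-gene scaling or after background subtraction. Hspa5 (BiP), the main lumenal chaperone, was at 759 and 651 CPM in WT and 1158 and 1137 CPM in KO (log2 fold change 0.70, SE 0.070, adjusted p = 8.95e-11). Hsp90b1 was at 866 and 877 CPM in WT and 1333 and 1384 CPM in KO (log2 fold change 0.64, SE 0.069, adjusted p = 6.18e-10). Calr, the lectin chaperone calreticulin, was at 420.0 and 408 CPM in WT and 696 and 745 CPM in KO (log2 fold change 0.80, SE 0.088, adjusted p = 1.12e-09), and the disulfide isomerase Pdia3 was at 89.0 and 98.7 CPM in WT and 189.6 and 173 CPM in KO (log2 fold change 0.95, SE 0.12, adjusted p = 1.65e-08). Creld2, a secreted stress marker, was at 11.8 and 14.3 CPM in WT and 29.7 and 34.5 CPM in KO (log2 fold change 1.30, SE 0.26, adjusted p = 1.21e-04). The signalling branches did not follow as lists. Of 4 stress sensors 1 was higher (Eif2ak3, 0.42) and 1 lower (Ern1, -0.50), and of 7 integrated stress response genes 1 was higher (Atf4, 0.25) and 1 lower (Trib3, -2.43, not called after background subtraction). Ddit3, the CHOP factor of prolonged stress, was at 67.9 and 66.8 CPM in WT and 70.6 and 68.4 CPM in KO (log2 fold change 0.05, SE 0.17, adjusted p = 0.869). The whole list of 24 had 14 higher (58.3%) and 2 lower, with a median of 0.45.

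Cytosolic chaperones showed the same direction with fewer calls, 7 of 12 higher and 0 lower by edgeR (1 at an unadjusted p below 0.05, and 0 with DESeq2, median 0.42), or 4 higher and 1 lower under the abundant-gene scaling. Hsp90ab1 was at 692 and 573 CPM in WT and 1138 and 1156 CPM in KO (log2 fold change 0.86, SE 0.12, adjusted p = 4.13e-05) and Hspa8 at 771 and 721 CPM in WT and 1165 and 1195 CPM in KO (log2 fold change 0.66, SE 0.10, adjusted p = 3.12e-05). Both are constitutive chaperones. Of 75 tested cytosolic ribosomal protein genes, 28 were higher (37.3%) and 0 lower (also 0 at an unadjusted p below 0.05 and with DESeq2), with a median of 0.42. That count was 18 without WT replicate 1, 16 under the abundant-gene scaling and 46 under the all-gene scaling. Rpl4 was at 301 and 331 CPM in WT and 428 and 461 CPM in KO (log2 fold change 0.49, SE 0.084, adjusted p = 1.27e-05). Its ages also differed, with later differences of 0.03, -0.04, -0.28 and -0.40. Ribosomal protein genes have many near-identical pseudogenes, and the counting of reads shared between copies is not given in the sources used here. Of 31 proteasome genes, 15 were higher (48.4%) and 0 lower (also 0 at an unadjusted p below 0.05 and with DESeq2), with 8 under the abundant-gene scaling and 23 under the all-gene scaling. Of 19 tested autophagy and lysosome genes, 8 were higher and 1 lower, with 5 higher under the abundant-gene scaling and 4 after background subtraction. Gabarap, an ATG8 protein of the autophagosome membrane, was at 40.3 and 27.7 CPM in WT and 102 and 109.7 CPM in KO (log2 fold change 1.64, SE 0.18, adjusted p = 1.75e-09), and the lysosomal membrane protein Lamp1 had a log2 fold change of 0.77 (adjusted p = 2.89e-09).

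**Figure D5:**
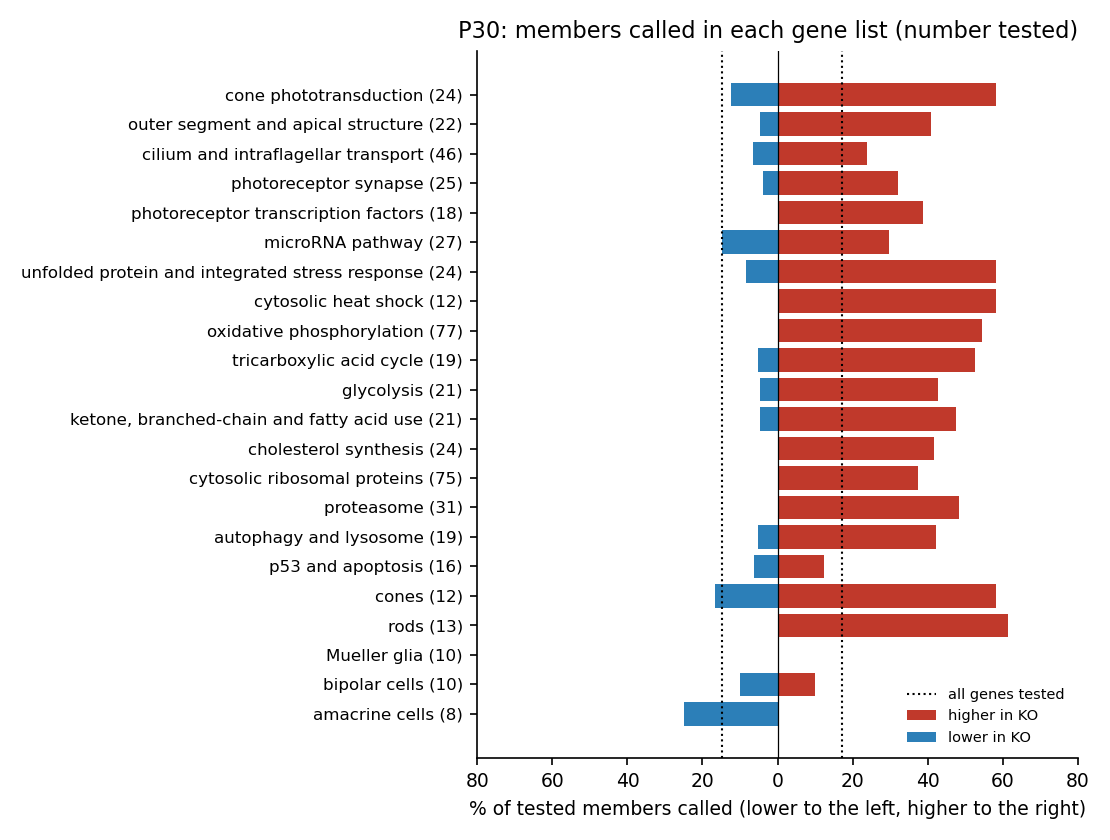
Percent of the tested members of each gene list called higher (right, red) or lower (left, blue) in KO at P30, with dotted lines at the shares over all genes tested (17.3% and 14.9%) and the number tested in parentheses. Oxidative phosphorylation reached 54.5% higher with no member lower, and cone phototransduction 58.3% higher with 12.5% lower. The lists were not matched for level. Of all genes with a mean of at least 32 CPM, 30.9% were higher and 5.90% lower.

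LIF and related cytokines signal in the injured retina through the receptor subunit Il6st and STAT3. Of 11 tested genes of LIF and STAT3 signalling, 4 were higher and 2 lower, and 2 were higher without WT replicate 1. Lifr, the LIF receptor, was at 80.9 and 88.2 CPM in WT and 191 and 216 CPM in KO (log2 fold change 1.27, SE 0.11, adjusted p = 1.73e-12). Stat3, the transcription factor it activates, was at 45.5 and 65.1 CPM in WT and 125 and 142 CPM in KO (log2 fold change 1.27, SE 0.14, adjusted p = 5.29e-10). Osmr, the oncostatin receptor, was at 28.9 and 9.66 CPM in WT and 2.10 and 1.38 CPM in KO and fell (log2 fold change -3.45, SE 0.66, adjusted p = 8.11e-05), a call lost after background subtraction. The 1 tested ligand, Cntf, was lower (-2.42, adjusted p = 8.53e-04). Retinal gliosis genes (5 tested, 1 higher) and interferon response genes (6 tested, 1 lower) were mostly under the filter. Of 9 tested immediate early genes 3 were higher and 0 lower (also 0 at an unadjusted p below 0.05 and with DESeq2). Nr4a1 was at 13.8 and 22.7 CPM in WT and 43.6 and 38.2 CPM in KO (log2 fold change 1.17, SE 0.24, adjusted p = 1.92e-04) and Jun at 28.5 and 26.0 CPM in WT and 44.9 and 43.2 CPM in KO (log2 fold change 0.69, SE 0.20, adjusted p = 0.00578), while Fos was at 14.6 and 22.3 CPM in WT and 16.6 and 18.8 CPM in KO (log2 fold change -0.06, SE 0.31, adjusted p = 0.908). Of 16 tested p53 and apoptosis genes 2 were higher, among them the antiproliferative Btg2 (0.49), and 1 was lower, the BH3-only gene Bcl2l11 (-0.93, not called under the all-gene scaling).

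The genes with the largest rises were chosen by a rule that asked for a mean of at least 20 CPM in the higher group, no overlap and the same call under every scaling. Mir29b-2, Mir29c and Oxct1 are among them and are described above. Nbl1, a secreted antagonist of bone morphogenetic proteins, was at 6.91 and 11.8 CPM in WT and 59.7 and 70.5 CPM in KO (log2 fold change 2.80, SE 0.28, adjusted p = 5.90e-11). Nab2, a corepressor of EGR factors, was at 4.47 and 6.30 CPM in WT and 32.5 and 30.7 CPM in KO (log2 fold change 2.55, SE 0.36, adjusted p = 3.50e-07). Inhbb, the activin beta B subunit, was at 5.69 and 7.14 CPM in WT and 33.7 and 29.1 CPM in KO (log2 fold change 2.29, SE 0.29, adjusted p = 2.10e-08). For these 3 genes the lower KO library was far above the higher WT library. Taf9b, a TBP-associated factor, was at 4.47 and 7.98 CPM in WT and 33.1 and 31.1 CPM in KO (log2 fold change 2.37, SE 0.37, adjusted p = 3.32e-06). Gabrr3, a rho subunit of the GABA receptor, was at 23.2 and 14.3 CPM in WT and 101 and 90.5 CPM in KO (log2 fold change 2.35, SE 0.23, adjusted p = 3.56e-11), and Agr2, a disulfide isomerase of secretory cells, at 13.0 and 27.3 CPM in WT and 89.8 and 93.9 CPM in KO (log2 fold change 2.19, SE 0.22, adjusted p = 4.80e-11). The WT libraries of Agr2 differed from each other, and both lay below both KO libraries. Alpk2 (2.18), an atypical kinase, Col17a1 (2.10), a hemidesmosome collagen, Rpl23a (1.82), a ribosomal protein, and Cotl1 (1.79), an actin-binding protein, followed. Ngfr, the p75 neurotrophin receptor, was at 56.1 and 52.9 CPM in WT and 190.1 and 166 CPM in KO (log2 fold change 1.71, SE 0.15, adjusted p = 3.46e-12), and its difference turned with age, being 1.71, 1.77, -0.85 and -1.95 at the later ages.

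A further set of abundant genes, chosen after their values were seen, had at least 100 CPM in the higher group and the same call under every scaling and after background subtraction. Of the 2410 tested genes with at least 100 CPM in KO, 517 were higher in KO by these criteria and without overlap. Slc31a1, the copper importer, was at 50.4 and 71.8 CPM in WT and 208 and 183 CPM in KO (log2 fold change 1.68, SE 0.14, adjusted p = 4.72e-13). Ssx2ip, a centrosome and adhesion protein, was at 235 and 197 CPM in WT and 535 and 568 CPM in KO (log2 fold change 1.35, SE 0.082, adjusted p = 1.17e-17), and Tnc, the matrix glycoprotein tenascin C, at 39.8 and 38.2 CPM in WT and 112 and 114 CPM in KO (log2 fold change 1.54, SE 0.15, adjusted p = 4.42e-11). Malat1, a nuclear noncoding RNA with the highest CPM in all 4 libraries, was at 48213 and 44626 CPM in WT and 73840.2 and 73369 CPM in KO (log2 fold change 0.67, SE 0.10, adjusted p = 4.61e-04).

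Of the 2039 tested genes with at least 100 CPM in WT, 39 were lower in KO by the same criteria. Lynx1, a modulator of nicotinic receptors, was at 405 and 383 CPM in WT and 136 and 153 CPM in KO (log2 fold change -1.44, SE 0.10, adjusted p = 6.75e-15). Its difference grew later, being -1.97, -2.17, -3.15 and -2.30. Amy1, an amylase gene, was at 269 and 352 CPM in WT and 134 and 125 CPM in KO (log2 fold change -1.26, SE 0.10, adjusted p = 1.70e-13). Rnpc3, which encodes a protein of the minor spliceosome, was at 544 and 571 CPM in WT and 267 and 292 CPM in KO (log2 fold change -1.0, SE 0.084, adjusted p = 6.63e-13). The annotated spans of Amy1 and Rnpc3 overlap on the same strand. Reads in the shared stretch could be counted for either, so these 2 falls may not be independent. Fam40b, a STRIPAK subunit, was at 138 and 109 CPM in WT and 46.2 and 45.6 CPM in KO (log2 fold change -1.43, SE 0.15, adjusted p = 4.45e-10). Sfi1, a centriole protein, was at 141 and 175 CPM in WT and 45.0 and 41.3 CPM in KO (log2 fold change -1.87, SE 0.15, adjusted p = 8.85e-14). The axonemal dynein gene Dnahc9 was at 263 and 281 CPM in WT and 134 and 149 CPM in KO (log2 fold change -0.94, SE 0.10, adjusted p = 5.49e-10). The background estimate scales with exon length, so it was large for long transcripts, and its part in their differences was not tested. Ttn, the muscle protein titin, was at 259 and 221 CPM in WT and 39.7 and 40.7 CPM in KO (log2 fold change -2.58, SE 0.16, adjusted p = 2.35e-17), with an estimated background of 121 CPM in WT and 12.3 CPM in KO. Kcnq1ot1, an imprinted antisense RNA, was at 666 and 619 CPM in WT and 305 and 308 CPM in KO (log2 fold change -1.07, SE 0.087, adjusted p = 3.76e-13), with 96.8 and 9.81 CPM.

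The largest falls were in genes with little message in KO. Oprk1, the kappa opioid receptor, was at 17.9 and 22.3 CPM in WT and 0.233 and 0.628 CPM in KO (log2 fold change -5.49, SE 0.69, adjusted p = 3.09e-08). Of its WT level, 9.51 CPM was the estimated background. Myh8, a skeletal myosin, was at 28.1 and 18.5 CPM in WT and 0.466 and 2.13 CPM in KO (log2 fold change -4.16, SE 0.75, adjusted p = 3.23e-05), with 12.2 CPM of background in WT. Its call was lost after background subtraction (adjusted p = 0.0692), as was that of the fibrocystin-like membrane protein Pkhd1l1 (adjusted p = 0.0566), at 38.2 and 18.1 CPM in WT and 2.80 and 2.76 CPM in KO. Apob, apolipoprotein B, was at 30.1 and 24.8 CPM in WT and 1.52 and 2.26 CPM in KO (log2 fold change -3.85, SE 0.51, adjusted p = 7.29e-08), and the lipid transporter Abca12 at 22.4 and 22.7 CPM in WT and 2.68 and 0.502 CPM in KO (log2 fold change -3.79, SE 0.52, adjusted p = 2.33e-07). Their backgrounds in WT were 14.5 and 15.4 CPM. Clspn, a replication checkpoint adaptor (-3.76), Rbms3, an RNA-binding protein (-3.41), and the magnesium channel Trpm6 (-3.40) completed the list outside the Ugt1a locus. Each of these stood in both WT libraries above both KO libraries, and the share of background in each was not tested beyond the estimate.

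The Ugt1a genes stood further above the estimate. Ugt1a6a, a glucuronosyltransferase, was at 49.2 and 58.8 CPM in WT and 4.66 and 2.26 CPM in KO (log2 fold change -3.94, SE 0.32, adjusted p = 2.43e-13), beside 4.48 CPM of background in WT. Ugt1a10, Ugt1a9, Ugt1a5, Ugt1a2 and Ugt1a7c had log2 fold changes of -3.70, -3.70, -3.55, -3.54 and -3.46. All lie in 1 locus on chromosome 1 and share their last exons, so they are not independent, and reads in the shared exons could be counted for any of them. At the later ages the Ugt1a6a differences were -1.82, -0.46, 2.95 and -0.50.

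Other genes differed most between P30 and the later ages by having changed little at P30. Kcne2, a potassium channel subunit used here as a cone marker, was at 1841 and 1793 CPM in WT and 1724 and 1774 CPM in KO (log2 fold change -0.06, SE 0.12, adjusted p = 0.771), while its later differences were -0.65, -1.11, -2.39 and -4.11. Olfm1, a secreted neuronal glycoprotein, was at 486 and 559 CPM in WT and 415 and 389 CPM in KO (log2 fold change -0.38, SE 0.087, adjusted p = 7.13e-04), against -1.02, -2.06, -2.94 and -3.28 later. Lrrc4, a synaptic adhesion protein, was at 49.6 and 47.0 CPM in WT and 37.9 and 36.6 CPM in KO (log2 fold change -0.37, SE 0.22, adjusted p = 0.186) and Osgep, a tRNA-modifying enzyme, at 183 and 123 CPM in WT and 211 and 192 CPM in KO (log2 fold change 0.40, SE 0.13, adjusted p = 0.0127). In the other direction Dsp, a desmosome protein, was at 15.4 and 29.4 CPM in WT and 4.78 and 2.01 CPM in KO (log2 fold change -2.71, SE 0.51, adjusted p = 6.53e-05) and Ckap2l, a mitotic spindle protein, at 30.9 and 12.2 CPM in WT and 1.98 and 2.38 CPM in KO (log2 fold change -3.29, SE 0.62, adjusted p = 6.27e-05). Their differences at P60 were 8.04 and 6.42, the age at which the order of the silent receptor background was turned. Between P30 and P40, 1108 genes were higher at both ages (56.0% of the P30 calls and 66.7% of the P40 calls). A further 697 were lower at both (40.8% and 68.9%). Over all 11456 genes tested, 1661 were called higher at P40 and 1011 lower. At P30, 17.3% of all genes tested were called higher and 14.9% lower. No library is shared between these ages.

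Sex-linked genes differed between the groups, and sex is not given in the labels. Xist, the RNA of the inactive X chromosome, was at 509 and 619 CPM in WT and 929.7 and 939 CPM in KO (log2 fold change 0.73, SE 0.10, adjusted p = 2.51e-06). Eif2s3y, a Y-linked gene, was at 85.4 and 93.7 CPM in WT and 27.6 and 29.2 CPM in KO (log2 fold change -1.65, SE 0.15, adjusted p = 4.90e-12), and all 4 tested Y-linked genes were lower. Both kinds of message were in all 4 libraries. At P40, P50, P60 and P90 the Xist log2 differences were 5.61, -0.96, 1.35 and -3.33. The medians of the 4 Y-linked genes at those ages were -0.07, 0.64, -0.34 and 1.92. The part of sex in any other difference, or in the contrasts with the later ages, was not tested.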

How the data were processed

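The authors deposited 1 file of raw counts per gene symbol for each library, 20 in all. Per the labels' protocols RNA came from Trizol or PicoPure, libraries from the ScriptSeq Complete Low Input kit, pooled in batches of 4 per HiSeq 2000 lane. Which extraction and lane each library had is not in the labels. The submitters' processing notes name CASAVA 1.8.0 and the build mm10 (GRCm38). For the aligner, counting program, annotation and strand setting, the entry is: not given in the sources used here. The 2 unnamed entries, with 14 counts over all files and 0 at P30, were left out. Depth was 2237624 to 9169235 counts at P30.

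Genes with a mean of at least 5 CPM in the 4 P30 libraries were tested with edgeR 4.0.16 (quasi-likelihood, robust, TMM factors from those genes; R 4.3.3, limma 3.58.1) in 1 fit of all 20 libraries with 1 coefficient per group, so that all groups share the estimate of spread (biological coefficient of variation 0.126). The contrasts were KO minus WT at P30, and that difference minus the mean of the 4 later ones. Levels are TMM-scaled CPM, except the marker sums, and adjusted p is by Benjamini and Hochberg. The fit was tested on simulated data. Of the symbols, 20913 matched GENCODE M21 directly, 1749 by an older symbol and 415 not at all. Lists are described by counts and medians, with no set test. Silent receptor genes were all Olfr, Vmn1r, Vmn2r, Taar and Tas2r symbols but 1, which was left out for its level of at least 32 CPM, a departure from the planned list. Alternatives included other scalings, filters, DESeq2 1.42.0, a 2-fold test, thinning, background subtraction and leaving out each library. The coding-length subtraction and the removal of single later ages were chosen after seeing the data.

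Named genes are the 14 each way with the largest P30 difference at 20 CPM or more, without overlap and called under every scaling and the planned background subtraction (Rik, Gm, LOC, BC and AU names passed over), the 6 each way that differ most from the later ages, list members, and always Gnat2, Arr3, Opn1mw, Opn1sw, Dicer1, Drosha and Dgcr8. A few list members are counted in their lists but not reported here by name. The members and lists were chosen with earlier results of these data known.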

Additional observations from a re-analysis of the deposited data

Results flagged for a closer look

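Of 43 named genes, 30 had a P30 difference (KO minus WT, log2) that differed from the mean difference at P40, P50, P60 and P90 in edgeR's quasi-likelihood test, and 13 did not. Some of the 43 genes were named because they differ most from the later ages, so the count of 30 was partly fixed by that choice. Of all genes tested, 22.9% were called in this contrast in either direction. The values that follow are the P30 difference minus the mean difference at the later ages.

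Among genes of the cone, Opn1mw stood at 2.70 (SE 0.10, adjusted p = 1.23e-22), Kcne2 at 2.01 (SE 0.14, adjusted p = 2.45e-08), Gnat2 at 0.97 (SE 0.075, adjusted p = 5.28e-14), Opn1sw at 0.78 (SE 0.059, adjusted p = 2.83e-14) and Arr3 at 0.43 (SE 0.072, adjusted p = 1.48e-05). The neuronal glycoprotein Olfm1 stood at 1.95 and the synaptic adhesion protein Lrrc4 at 1.87. Osgep stood at 1.69 and the mitochondrial ribosome protein Mrpl11 at 1.67. Without P90 in the mean Opn1mw stood at 1.10 and Kcne2 at 1.33, and Arr3 at -0.00 (adjusted p = 0.977), so the Arr3 contrast rests on P90.

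Of the genes with the largest rises at P30, Ngfr stood at 1.53 (SE 0.17, adjusted p = 2.77e-09), Rpl23a at 1.65, Cotl1 at 1.05 and Gabrr3 at 0.74. Without P90 Ngfr stood at 0.83, and Gabrr3 was not called without P60 (0.62, adjusted p = 0.111) or without P90 (0.46, adjusted p = 0.223).

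Low-level genes that fell at P30 were more negative there than later. Oprk1 stood at -6.70 (SE 0.80, adjusted p = 1.83e-08), Apob at -4.65, Abca12 at -4.31, Ckap2l at -4.30, Dsp at -4.12 and Heatr7b1 at -4.09. Without P60, where their KO minus WT differences ran from 4.99 to 8.04, these were -4.64, -2.83, -2.83, -2.49, -1.91 and -1.88, each still called. Ugt1a6a stood at -3.99, and the genes that share exons with it, Ugt1a10, Ugt1a9, Ugt1a5, Ugt1a2 and Ugt1a7c, at -3.50, -3.45, -3.28, -3.29 and -3.17. Clspn stood at -3.66, Myh8 at -3.65, Pkhd1l1 at -3.60, Trpm6 at -3.38 and Rbms3 at -2.65. Without P60 Trpm6 stood at -2.20 and Pkhd1l1 at -2.21. The silent receptor background was higher in WT at P30 and lower in WT at P60, and its part in these values was not tested.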

How the results depend on the processing

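The count of genes higher in KO at P30 was 1979. It was 962 under the abundant-gene scaling, 3735 under the all-gene scaling, 3695 with edgeR's default filter, 3803 with no filter, 832 with genes of at least 32 CPM alone, 34 in the 2-fold test, 1188 after the coding-length background subtraction and 1210 in a fit of the 4 P30 libraries alone. The count of genes lower, 1709, was 760 with genes of at least 32 CPM, 427 in the 2-fold test and 824 after that subtraction. Genes more positive at P30 than later, 1253, were 831 under the abundant-gene scaling, 2172 under the all-gene scaling, 2130 with the default filter, 2186 with no filter, 731 with at least 32 CPM, 22 in the 2-fold test, 812 after the subtraction and 786 without P60. Genes more negative, 1367, were 747 with at least 32 CPM, 323 in the 2-fold test, 738 after the subtraction and 669 without P60. The abundant-gene scaling moved the median difference of all genes by -0.19 and the all-gene scaling by 0.23 (log2), and the 32 CPM filter and the single-age fit leave fewer genes or libraries. For the other settings the cause was not tested. Leaving out each P30 library gave 1445 to 1890 higher and 1137 to 1519 lower genes at P30, and 883 to 1264 more positive and 919 to 1262 more negative ones. DESeq2 gave 1664 higher and 1966 lower genes, and KO libraries thinned to WT depth 1778 and 1427.

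Drosha was at 0.18 under the all-gene scaling and with the default filter, 0.21 with no filter and 0.14 without WT replicate 1, with -0.21 without WT replicate 2 and -0.05 with all libraries. Gnat2 was at -0.058 under the abundant-gene scaling and with at least 32 CPM, and at -0.12 after the subtraction. Over 71 named values and 21 alternatives, 1189 values kept their direction and side of the threshold, 16 lost the call, 3 gained it and 7 changed sign. Apart from the genes always reported, these genes were chosen for the same call under the other scalings and the planned background subtraction. Their agreement under those settings was thus fixed in advance. With a replicate block the counts were 1937 higher and 1596 lower, and 1211 more positive and 1277 more negative. Same-numbered libraries of the 2 genotypes did not deviate together, with correlations across genes from -0.01 to 0.03 at the 5 ages. This does not show whether same-numbered libraries shared a sort or a lane. The P30 WT libraries held 2237624 and 2323451 counts and the KO libraries 8531727 and 9169235, with 2 libraries per group. Which of the named RNA extraction methods a library had is not analysed here. Genes below 32 CPM have no value under that filter, and the fit of the 4 P30 libraries has none for the contrast with later ages.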
